A study of Mus musculus with 4 samples.

Results

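The genes described here are 10 germline genes: Mael, Hormad1, Dazl, Ddx4, Sycp1, Sycp3, Taf7l, Tex19.1, Tdrkh and Slc25a31. They were taken by name, with RefSeq identifiers matched to gene symbols, and each had 1 row among the 23697 loci of the deposited expression table. The study transfected WW6 cells, a line of mouse embryonic stem cells of mixed background (about 75% 129/Sv, 20% C57/B6J and 5% SJL), with small interfering RNA (siRNA). The siRNA targeted Kdm5b, which codes for a demethylase of lysine 4 of histone H3, or GFP in the control cells. All cells were grown without feeder cells in serum and leukemia inhibitory factor. The knockdown was transient, so cells that took up no siRNA may be part of each library. There are 2 control and 2 knockdown libraries, lettered A and B in each group. Nothing in the labels ties the letters to separate cultures, so the p-values may rest on technical spread alone.

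Germline genes carry out meiosis, guard germ cells against transposons and control the RNA of germ cells. In most body cells their CpG-rich promoters are shut by DNA methylation and by a Polycomb complex, PRC1.6, which reaches DNA through E2F6 and through the pair MGA and MAX. Embryonic stem cells are known to transcribe several of these genes at low levels without entering meiosis.

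The 4 promoters shown are those of the members with the highest mean level over the 4 libraries. Most of the 10 genes share the sequence features marked in them. The 10 genes were chosen by name as germline genes, a class known to be shut through E2F6 and the MGA and MAX pair. Counts of these features are therefore a description and not an independent result. Each line gives the 250 bases before the transcription start, from RefSeq on GRCm38.p6, on the gene's strand. Capitals mark an E2F6-type core (TCCCGC, or GCGGGA on the other strand) or an E-box (CACGTG, the same on both strands), the sequences that E2F6 and the MGA and MAX pair are known to bind. Mael lies at chr1:166238745-166238994 (minus strand), Hormad1 at chr3:95559427-95559676 (plus), Sycp3 at chr10:88459337-88459586 (plus) and Tex19.1 at chr11:121145893-121146142 (plus).
Mael: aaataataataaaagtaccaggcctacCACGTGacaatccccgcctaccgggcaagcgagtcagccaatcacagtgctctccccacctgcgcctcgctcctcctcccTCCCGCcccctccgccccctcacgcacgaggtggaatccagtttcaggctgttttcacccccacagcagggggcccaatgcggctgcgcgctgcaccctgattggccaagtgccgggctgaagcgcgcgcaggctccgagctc
Hormad1: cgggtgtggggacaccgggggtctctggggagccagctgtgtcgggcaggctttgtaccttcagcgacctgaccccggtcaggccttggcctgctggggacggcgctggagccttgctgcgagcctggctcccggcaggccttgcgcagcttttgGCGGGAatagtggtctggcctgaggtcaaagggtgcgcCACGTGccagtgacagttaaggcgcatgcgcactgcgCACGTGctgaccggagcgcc
Sycp3: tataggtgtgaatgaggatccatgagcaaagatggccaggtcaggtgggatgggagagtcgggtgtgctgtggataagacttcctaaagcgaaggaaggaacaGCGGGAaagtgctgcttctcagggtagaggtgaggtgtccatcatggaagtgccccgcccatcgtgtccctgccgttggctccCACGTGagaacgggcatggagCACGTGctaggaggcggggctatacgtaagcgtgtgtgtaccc
Tex19.1: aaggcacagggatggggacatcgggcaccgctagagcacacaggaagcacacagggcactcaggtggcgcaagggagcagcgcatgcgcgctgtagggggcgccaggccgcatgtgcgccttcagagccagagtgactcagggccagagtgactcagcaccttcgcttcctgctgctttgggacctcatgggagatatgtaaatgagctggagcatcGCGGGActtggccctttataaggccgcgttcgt

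In windows of 300 bases, which add 50 bases after the start, 7 of 10 members held an E2F6-type core, against 20.0% of 27025 gene promoters. An E-box was found in 7 of 10, against 7.24% of all promoters, and 6 of 10 held both, against 2.05%. The core and the E-box did not share bases in any member. CpG content differs as well: the members held 15 to 38 CpG each (median 23), while the median over all promoters was 7. Among the 9514 promoters with at least 15 CpG, 45.2% held the core, 11.5% the E-box and 5.08% both. Dazl and Tdrkh held neither sequence in this window, Taf7l held only an E-box and Tex19.1 only a core. For Tdrkh alone, the bases checked just after the start were not found near the start of a GENCODE transcript. Its window may therefore be misplaced. A match is a string of letters, and binding was not measured.

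**Figure D1:**
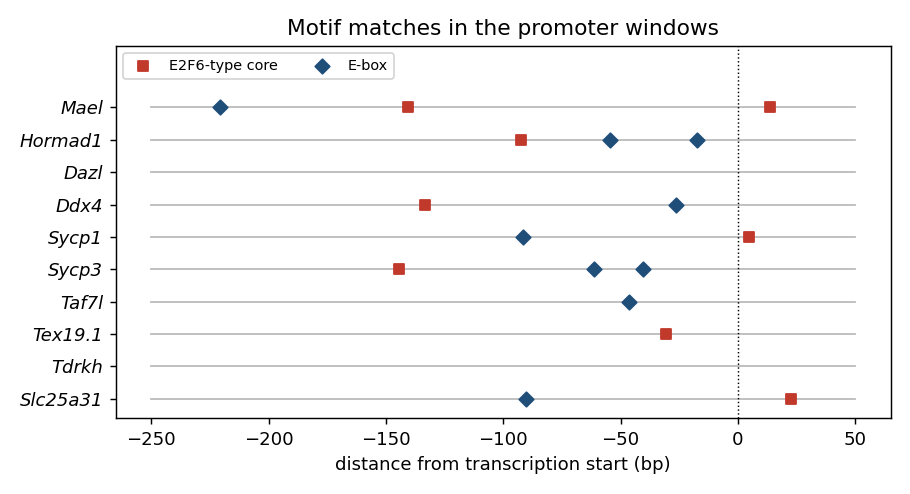
Positions of E2F6-type cores (red squares) and E-boxes (blue diamonds) in the promoter windows of the 10 genes; the x axis is the distance from the transcription start in bp, with the start as 0. 7 genes hold a core, 7 hold an E-box, and Dazl and Tdrkh hold neither.

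Levels are given in FPKM (fragments per kilobase of a transcript, relative to all mapped fragments), a unit that allows genes to be compared per length. The 10 genes were spread widely over the range of expressed loci. By the mean of all 4 libraries, Tex19.1 stood at the 81.0 percentile of the 17172 loci above 0, Sycp3 at 76.8, Mael at 63.2, Hormad1 at 49.3 and Tdrkh at 21.6. In the control cells the mean levels (± SD, n = 2) were 31.1 ± 13.7 FPKM for Sycp3, 21.0 ± 1.19 for Tex19.1, 6.28 ± 0.39 for Hormad1, 5.36 ± 0.69 for Mael and 3.58 ± 0.73 for Ddx4. They were 2.28 ± 0.08 FPKM for Dazl, 1.73 ± 0.42 for Sycp1, 1.05 ± 0.36 for Taf7l, 0.77 ± 0.58 for Slc25a31 and 0.23 ± 0.07 for Tdrkh. In this order the control values of Sycp3 and Tex19.1 overlapped, as did those of Taf7l and Slc25a31, and the values of the other neighbours did not.

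**Figure D2:**
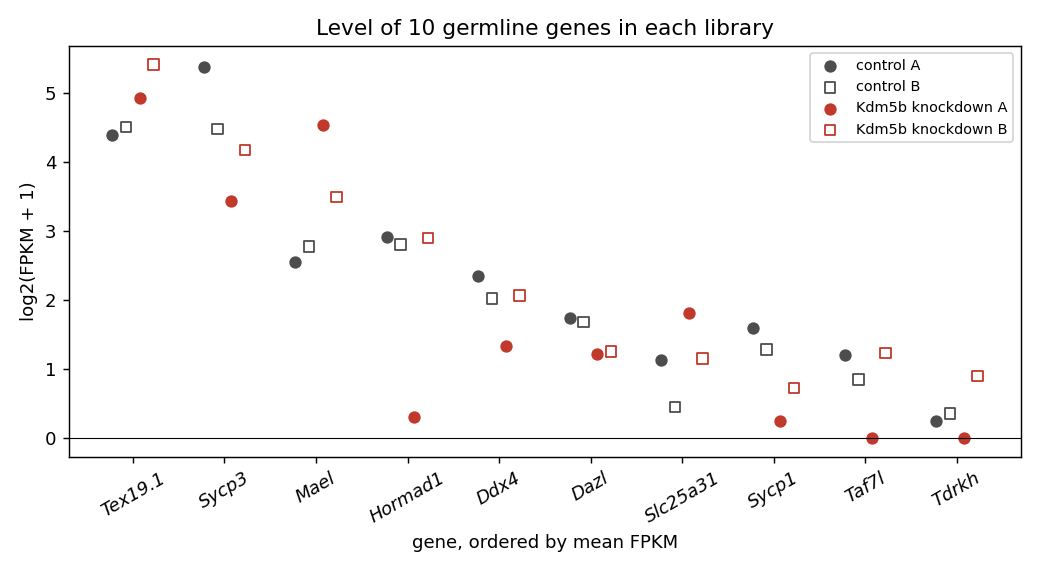
Level of each of the 10 genes on the log2(FPKM + 1) scale, ordered by mean FPKM; each point is 1 library (grey for control, red for Kdm5b knockdown, filled circles for A, open squares for B). Hormad1 in knockdown A, at 0.23 FPKM, stands far under its other 3 libraries, between 6.01 and 6.56 FPKM.

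All 4 libraries carried the markers of embryonic stem cells. All 14 stem cell markers had a mean of at least 5 FPKM, Dppa5a being the highest at 1473 to 1797 FPKM and Pou5f1 standing at 767 to 1259 FPKM. Klf4 and Esrrb, transcription factors of the pluripotent state, had the largest log2 fold changes on this list, -0.84 (standard error 0.24) and -0.44 (standard error 0.23), and both knockdown libraries were below both controls for each. Kdm5b was measured at 99.7 FPKM in control A and 145 FPKM in control B, against 22.7 and 31.1 FPKM in the knockdown libraries (log2 fold change -2.14 ± 0.30, standard error; adjusted p = 0.562 by limma). Depth was estimated from the steps between low values: 1 FPKM in a transcript of 2000 bp stood for 7.90 and 7.73 fragments in controls A and B and 5.89 and 7.62 in knockdown A and B. Knockdown A listed 11953 loci at 0, against 8131 to 8609 in the other libraries.

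The comparison of knockdown with control cells asks whether these genes change when Kdm5b is lowered. Mael, Tex19.1 and Slc25a31 were higher in both knockdown libraries, Sycp3, Sycp1 and Dazl were lower in both, and Hormad1 was near absent in knockdown A alone; none of these differences passed the test over all loci. Of the 10 genes, 8 reached a mean of 1 FPKM and entered the limma test on log2(FPKM + 1). On this scale the change of a low gene comes out smaller than its ratio. Taf7l and Tdrkh were below that level. Of the 8, 0 were called higher and 0 lower at a Benjamini-Hochberg adjusted p under 0.05, where 0% of the 11784 loci tested were called higher and 0.0339% (4 loci) lower. At an unadjusted p under 0.05 there were 3 of the 8, Mael, Sycp3 and Tex19.1, and 2.46% (290) of all loci tested. Which members fell under it changed with the settings of the fit, as described in the last section. For every tested member the limma adjusted p was 0.918. With 2 libraries against 2, an exact permutation test of a single gene cannot give a two-sided p under 0.333.

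Both knockdown libraries lay above both controls for 3 of the 8 tested genes (Mael, Tex19.1 and Slc25a31), where 15% of tested loci did. They lay below both controls for 3 (Sycp3, Sycp1 and Dazl), where 16.9% of tested loci did. For Hormad1 and Ddx4, as for Taf7l and Tdrkh, the groups overlapped. The median log2 fold change of the 8 was -0.48, against -0.03 for all loci tested, and without knockdown A it was -0.04. In bulk RNA, fewer cells that express a gene and less RNA per cell cannot be told apart.

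**Figure D3:**
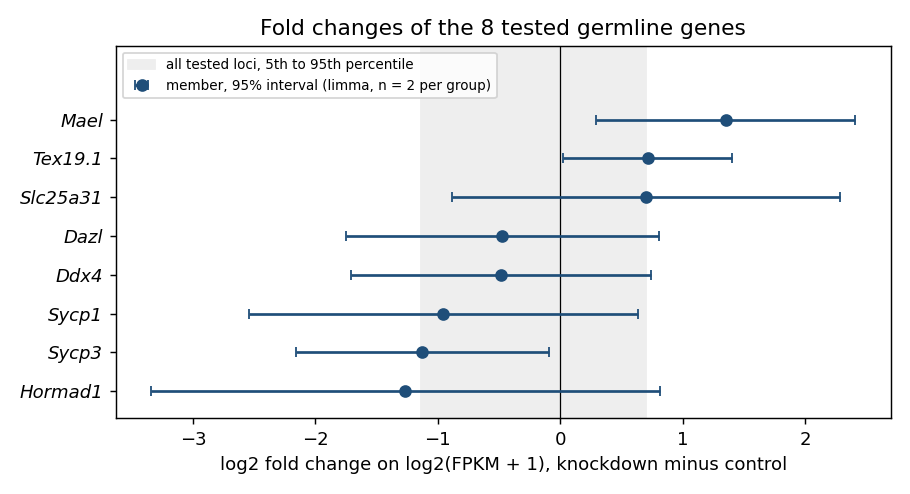
Log2 fold change of the 8 tested genes (points) with 95% intervals from limma, on log2(FPKM + 1), knockdown minus control, 2 libraries per group; the grey band spans the middle 90% of all tested loci. Mael lies at 1.35, right of the band, Hormad1 at -1.26, left of it, and no gene passed the adjusted threshold.

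Mael, Ddx4, Tdrkh and Tex19.1 act against transposons or in germ granules. Mael codes for Maelstrom, a protein of the piRNA pathway, in which small RNAs guide the silencing of transposons in male germ cells (mm9 chromosome 1, 168131515 to 168168875). It read 4.87 and 5.85 FPKM in controls A and B and 22.2 and 10.3 FPKM in knockdown A and B, an estimated 28.8, 33.8, 97.9 and 58.7 fragments. Both knockdown values were above both controls, and they differed from each other 2.16-fold. The means were 5.36 ± 0.69 and 16.3 ± 8.44 FPKM (SD, n = 2 each), a log2 fold change of 1.35 (standard error 0.43, 95% interval 0.30 to 2.41, limma adjusted p = 0.918). Mael ranked 76 by limma p among the loci tested. Without knockdown A the log2 fold change was 0.83, and without knockdown B it was 1.87.

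Ddx4 codes for the mouse Vasa protein, an RNA helicase of germ granules (chromosome 13, 113388540 to 113442518). It had 4.10 and 3.07 FPKM in controls A and B, and 1.53 and 3.20 FPKM in knockdown A and B. Knockdown B lay between the controls and knockdown A below both. The log2 fold change was -0.48 (standard error 0.50), and -0.12 without knockdown A. Tdrkh codes for a mitochondrial Tudor protein that binds PIWI proteins while piRNA ends are trimmed (chromosome 3, 94217239 to 94235421). It was the lowest member, at 0.18, 0.28 and 0.86 FPKM in control A, control B and knockdown B and listed at 0 in knockdown A, which stands for an estimated 1.98, 2.97, 8.93 and 0 fragments in the order control A, control B, knockdown B and knockdown A. At so few fragments no difference was detectable.

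Tex19.1 is a mammalian gene that limits retrotransposons in germ cells and placenta and is known for its sensitivity to DNA methylation (chromosome 11, 121007456 to 121009627). It gave 20.1 and 21.8 FPKM in controls A and B and 29.5 and 41.7 FPKM in knockdown A and B, with 137 to 273 estimated fragments per library. Both knockdown libraries were above both controls, and here knockdown B was the higher one. The means were 21.0 ± 1.19 and 35.6 ± 8.66 FPKM (SD, n = 2 each), with a log2 fold change of 0.72 (standard error 0.28, 95% interval 0.03 to 1.41). Without knockdown B it was 0.47. Its duplicated copy Tex19.2, with which it could share fragments, was listed at 0.74 FPKM in control A and at 0 in the other 3 libraries.

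The members that act in meiotic chromosome structure, Sycp3, Sycp1 and Hormad1, had negative log2 fold changes, that of Hormad1 only with knockdown A included. Sycp3 builds the lateral elements of the synaptonemal complex, the structure that holds paired chromosomes together (chromosome 10, 87922331 to 87966715). It was measured at 40.7 FPKM in control A and 21.4 FPKM in control B, against 9.84 and 17.1 FPKM in knockdown A and B. Both knockdown libraries were lower than both controls, but the controls themselves differed 1.91-fold and knockdown B lay close under control B. The means were 31.1 ± 13.7 and 13.5 ± 5.13 FPKM (SD, n = 2 each), with a log2 fold change of -1.13 (standard error 0.42, 95% interval -2.16 to -0.09). Without control A it was -0.67. Sycp3 has the same locus interval as Chpt1, an enzyme of phosphatidylcholine synthesis, so fragments of the pair may have been shared. Chpt1 read 7.96 and 7.98 FPKM in controls A and B and 2.39 and 6.81 FPKM in knockdown A and B, and its part in the Sycp3 values was not tested.

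Sycp1 codes for the transverse filaments that span the same complex (chromosome 3, 102622421 to 102740023). It had 2.03 and 1.43 FPKM in controls A and B, and 0.19 and 0.65 FPKM in knockdown A and B, an estimated 28.8, 19.9, 1.98 and 8.96 fragments. Both knockdown values were under both controls at these low counts. Knockdown averaged 24.3% of control, and the log2 fold change was -0.95 (standard error 0.65, 95% interval -2.54 to 0.63).

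Hormad1 marks chromosome axes that have not yet paired (chromosome 3, 95363598 to 95391593). It was at 6.56 FPKM in control A and 6.01 FPKM in control B, 0.23 FPKM in knockdown A and 6.46 FPKM in knockdown B. The controls and knockdown B agreed within 1.09-fold, with an estimated 33.8 to 37.7 fragments each, while knockdown A held an estimated 0.99 fragments. The log2 fold change of -1.26 (standard error 0.85) therefore came from 1 library, and without knockdown A it was 0.035. The promoter of Hormad1 shown above holds 1 core and 2 E-boxes, as does that of Sycp3.

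The remaining members are an RNA-binding protein, a transcription factor subunit and a transporter. Dazl controls the translation of germ cell messengers (chromosome 17, 50418717 to 50432945). It gave 2.33 and 2.22 FPKM in controls A and B and 1.34 and 1.39 FPKM in knockdown A and B. Both groups were tight: the controls differed 1.05-fold and the knockdown libraries 1.04-fold, and knockdown averaged 59.8% of control. This is an estimated 12.1 to 28.4 fragments per library, and limma, which shares the spread of loci at a like level, gave a log2 fold change of -0.47 with a standard error of 0.52. Dazl was the member on which knockdown A and B agreed most closely. Its relative Boll, a member of the same RNA-binding family, was measured at 2.18 FPKM in control A and 1.39 FPKM in control B, against 7.27 and 1.41 FPKM in knockdown A and B.

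Taf7l replaces the TFIID subunit TAF7 in germ cells (chromosome X, 130994654 to 131011029). It was at 1.30 FPKM in control A and 0.80 FPKM in control B, was listed at 0 in knockdown A and stood at 1.36 FPKM in knockdown B. With all expressed loci tested its log2 fold change was -0.41 (standard error 0.50). Taf7 itself read 37.8 and 65.5 FPKM in controls A and B and 79.0 and 51.6 FPKM in knockdown A and B, far above Taf7l in each library, and shares its interval with protocadherin genes. Slc25a31 is the germ cell form of the mitochondrial ADP/ATP carrier (chromosome 3, 40512792 to 40530016). It had 1.18 and 0.36 FPKM in controls A and B, and 2.53 and 1.23 FPKM in knockdown A and B, an estimated 10.0, 3.01, 16.0 and 10.0 fragments. Knockdown B exceeded control A by less than 1 estimated fragment, so the separation of the groups was thin. The log2 fold change was 0.70 (standard error 0.65), and 0.36 without control B and 0.37 without knockdown A. The carriers of other tissues, Slc25a4 and Slc25a5, stood at 178 to 207 and 308 to 434 FPKM over the 4 libraries, with log2 fold changes of 0.20 and 0.06.

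The 2 knockdown libraries were then set against the controls one at a time. Knockdown A was the lowest of the 4 libraries for 5 of the 8 tested genes and the highest for 2, where it was the lowest for 38.4% and the highest for 33.2% of tested loci. It was also the lowest for Taf7l and Tdrkh, both untested and listed at 0 there. Of the 8 tested, 5 were below both controls in knockdown A and 3 above, where 42.3% and 36.8% of tested loci were. In knockdown B, 3 of the 8 were below both controls and 3 above, where 29.5% and 29.1% of tested loci were. The median difference from the control mean over the 8 was -0.67 in knockdown A and -0.04 in knockdown B on the log2 scale, against -0.04 and 0.01 for all loci tested. Mael exceeded the 95th percentile of tested loci in both knockdown libraries: it was at 1.87 and 0.83 in A and B, where that percentile was 1.14 and 0.57. Tex19.1, at 0.96, exceeded it in knockdown B, and Sycp3, at -0.76, and Sycp1, at -0.71, were below the 5th percentile of -0.69 there. In knockdown A only Hormad1, at -2.56, was below the 5th percentile of -1.95. Knockdown A had 76.2% of the estimated depth of control B and the most loci at 0, and the part of this in the values above was not tested.

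**Figure D4:**
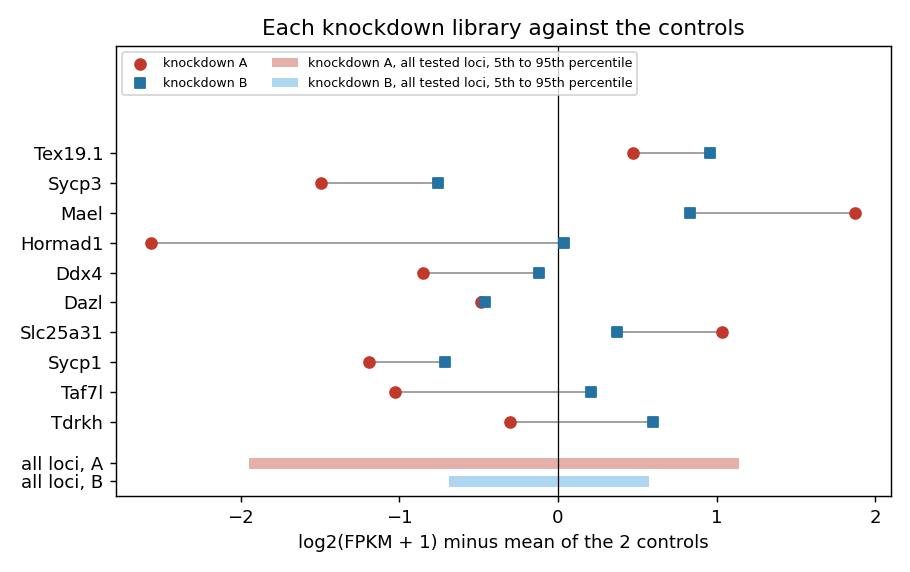
Difference of knockdown A (red circles) and knockdown B (blue squares) from the mean of the 2 controls, on log2(FPKM + 1), for the 10 genes; the bars below span the middle 90% of all tested loci in each library. Hormad1 is at -2.56 in knockdown A and 0.04 in knockdown B, while the points for Dazl lie together at -0.49 and -0.46.

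Other germline genes were read from lists compiled by function, and limma called 0 in each direction on each list. Over all tested loci 0% were called higher and 0.0339% lower, so 0 calls on short lists carry little information. At an unadjusted p under 0.05 there was 1 gene, Dppa3, where 2.46% of all tested loci were. Of 36 meiotic chromosome and recombination genes, 21 were tested, 12 with a positive and 9 with a negative log2 fold change (median 0.02). Both knockdown libraries were above both controls for 1 of the 21, where 15% of all tested loci were. This was Ccnb1ip1, which codes for a ligase needed for crossovers (0.78, standard error 0.36). Both were below both controls for 2 of the 21, where 16.9% of all tested loci were. These were the meiotic cohesin genes Smc1b (-0.85, standard error 0.71) and Rec8 (-0.71, standard error 0.40). Another meiotic cohesin gene, Stag3, stood at -0.01 with overlapping groups. Terb2, which tethers telomeres in meiosis, had the largest value at 0.97, and Rec114, a partner of the break-forming machinery, stood at -0.88. Both rest on knockdown A: Terb2 was 4.11 FPKM there and 0.12 to 0.47 in the others, and Rec114 was listed at 0 there and stood at 2.65 to 5.17 in the others. Rec114 shares an interval with Nptn. Syce2, of the central element of the synaptonemal complex, had the highest level, 61.5 to 79.2 FPKM, and a log2 fold change of 0.01; it shares its interval with Gcdh.

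Of 19 piRNA pathway genes other than Mael, Ddx4 and Tdrkh, 9 were tested, 6 positive and 3 negative (median 0.04). Gpat2 stood at -0.90, Fkbp6, a co-chaperone, at 0.83 and Pnldc1, the nuclease that trims piRNA ends, at 0.55, and the groups overlapped for all 3. Gpat2 was listed at 0 in knockdown A and stood at 2.77 to 3.20 FPKM elsewhere, and Fkbp6 was 15.0 FPKM in knockdown A and 1.76 to 4.36 elsewhere. Tdrd12 had the highest level, 39.2 to 60.9 FPKM. Of 20 regulators of germ cell formation 11 were tested, 6 positive and 5 negative (median 0.15). Dppa3, which protects DNA methylation in the early embryo and marks early germ cells, was the highest. It gave 25.3 and 33.8 FPKM in controls A and B and 43.1 and 78.1 FPKM in knockdown A and B (0.97, standard error 0.35, limma adjusted p = 0.918). Nanos3, needed for germ cell survival, stood at -1.24 and was listed at 0 in knockdown A.

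The factors that shut germline genes were all expressed. All 22 were tested, 15 positive and 7 negative (median 0.16, against -0.03 for all loci). E2f6, the DNA-binding repressor whose core motif is marked in the promoters above, was measured at 12.7 FPKM in control A and 6.02 FPKM in control B, against 2.30 and 9.59 FPKM in knockdown A and B (-0.73, standard error 0.65), so the groups overlapped. The DNA methyltransferase gene Dnmt3b read 31.4 and 73.5 FPKM in controls A and B and 78.3 and 77.8 FPKM in the knockdown libraries (0.69, standard error 0.41), and its partner Dnmt3l, which overlaps Aire, had a value of 0.45 (standard error 0.27). Pcgf6, a subunit of PRC1.6, had a value of 0.45 (standard error 0.33) with overlapping groups. Trim28, a corepressor, had the highest level, 504 to 752 FPKM. The log2 fold change of Ddx3x, a relative of Ddx4, was -0.23 (standard error 0.23), and that of Hormad2, a relative of Hormad1, was 0.02 (standard error 0.67). Rad21 and Smc1a code for cohesin subunits of dividing cells and are relatives of the meiotic cohesin genes, not of a member; their values were 0.37 (standard error 0.22) and 0.00 to 2 decimals.

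**Figure D5:**
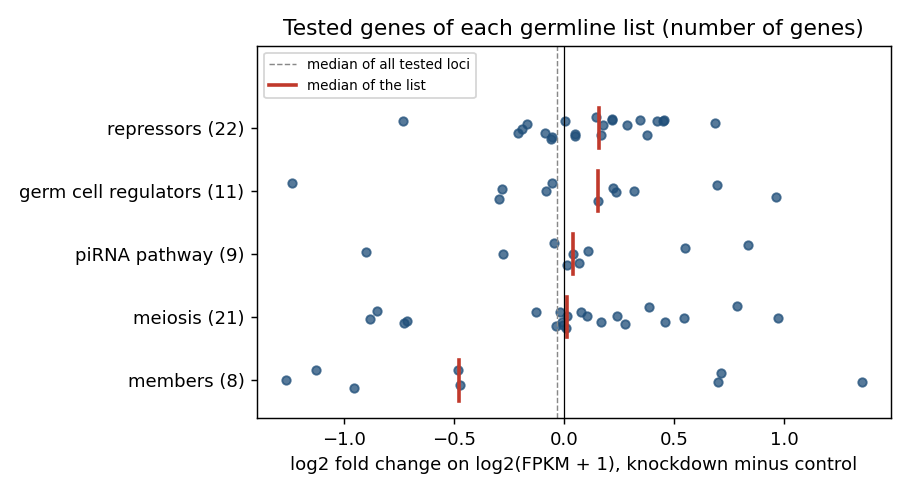
Log2 fold change on log2(FPKM + 1), knockdown minus control, of each tested gene on the germline lists (points), with the list's median (red line) and the median of all tested loci (dashed line). The median of the 8 members is -0.48 and the medians of the other 4 lists lie between 0.02 and 0.16; no point passed the adjusted threshold.

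Markers of other cell types were read from lists as well, and 0 of them were called by limma in either direction. Of all tested loci 0% were called higher and 0.0339% lower. At an unadjusted p under 0.05 there was 1 marker, Cubn, where 2.46% of all tested loci were. Of 13 spermatid and oocyte genes 11 stayed under 1 FPKM in every library. The exceptions were the egg coat gene Zp3, with 2.03 FPKM in control A and 1.87 FPKM in control B against 4.87 and 3.79 FPKM in knockdown A and B (log2 fold change 0.85, standard error 0.45), and Bmp15, an oocyte growth factor gene, listed at 0 except for 2.64 FPKM in knockdown A. Of 7 genes of the state that resembles the early cleavage embryo all 7 stayed under 1 FPKM.

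The 9 trophoblast markers summed to 63.6 and 27.3 FPKM in controls A and B and 13.9 and 27.2 FPKM in knockdown A and B. Most of this came from the keratin genes Krt18, with 38.5 FPKM in control A and 12.4 FPKM in control B against 3.28 and 12.2 FPKM in knockdown A and B, and Krt8, at 20.7 and 10.1 FPKM in the controls and 7.54 and 8.20 FPKM in the knockdown libraries. In control A both keratins stood above every member but Sycp3. Their log2 fold changes were -1.61 (standard error 0.71) and -0.81 (standard error 0.41), while Gcm1, a transcription factor of the placenta, had 0.88 (standard error 0.68). The 9 extraembryonic endoderm markers summed to 12.0 and 17.1 FPKM in the controls and 3.64 and 3.24 FPKM in the knockdown libraries. Of the 4 tested all were negative, where 6229 of the 11784 tested loci were. Both knockdown libraries were below both controls for 3, where 16.9% of tested loci were. Among these 3 were the endocytic receptor gene Cubn at -2.34 (standard error 0.55) and its adaptor gene Dab2 at -1.41 (standard error 0.65). Dab2 and Gata4, both among the 3, were low genes listed at 0 in knockdown A.

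Summed over 9 fibroblast markers the level was 10.1 and 3.72 FPKM in the controls and 3.91 and 2.66 FPKM in knockdown A and B. Of these 9, 6 stayed under 1 FPKM in every library: Col1a1, Col1a2, Col3a1, Postn, Lum and Dcn. The other 3 were the smooth muscle actin gene Acta2, with 6.48 FPKM in control A and 1.17 FPKM in control B, listed at 0 in knockdown A and at 1.09 FPKM in knockdown B, Thy1, at 2.06 and 1.66 FPKM in the controls and 0.20 and 0.31 FPKM in the knockdown libraries, and Pdgfrb, at 3.65 FPKM in knockdown A and 0.69 to 0.81 FPKM elsewhere. The log2 fold changes were -1.48 (standard error 0.82) for Acta2 and -1.19 (standard error 0.64) for Thy1. The fibroblast and trophoblast sums were highest in control A and the endoderm sum was higher in both controls. Sycp3, Sycp1, Hormad1, Ddx4 and Dazl were also highest in control A, and the other members were not. For Hormad1 and Dazl the lead was small. Hormad1 had 6.56 FPKM in control A against 6.46 in knockdown B, and Dazl 2.33 in control A against 2.22 in control B. How many of all tested loci were highest in control A was not counted, so this pattern cannot be called particular to the members. The part of these markers in the germline values was not tested.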

How the data were processed

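The authors deposited 1 table of FPKM per locus and library; Cufflinks and Cuffdiff and the mm9 build are named in the submitters' processing notes. The tool versions, the aligner and whether counting used strand were not given in the sources used here. Loci were named from RefSeq identifiers with a table of GRCm38.p6, used for names only: 23241 loci had 1 symbol. Locus coordinates are those of the table (mm9), promoter coordinates those of RefSeq (GRCm38.p6), and none was converted. Tests covered the 11784 loci whose mean reached 1 FPKM, on log2(FPKM + 1) with limma 3.58.1 in R 4.3.3 (eBayes with trend, group as the 1 term), two-sided, at a Benjamini-Hochberg adjusted p under 0.05. Fragments were estimated from the steps of low values, with transcript lengths from GENCODE M21 shortened by 200 bp; in each library 80.1% to 82.3% of them were within 0.15 of whole fragments. An exact 0 can be a failed estimate. Python 3.11.15, pandas 2.3.3 and matplotlib 3.10.9 made tables and figures.

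The members and lists were chosen with earlier results of these data known. All 10 members are named; of each list, the 2 to 4 tested genes with the largest absolute log2 fold change and the one with the highest mean, and all genes on a list of relatives. Rec8, Pou5f1, Bmp15 and the 6 low fibroblast markers were named after their values were seen. Of 179 list entries 175 were found. Alternatives were other pseudocounts, filters, scalings and variance settings, leaving out each library, a replicate block, and summed rows.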

Additional observations from a re-analysis of the deposited data

How the results depend on the processing

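No member was called under any alternative, and of the 64 values of tested members under another pseudocount, another scaling or with 1 library left out, 63 kept their direction. Other filters, variance settings, the replicate block and summed rows leave a member's log2 fold change as it is by construction and were not counted. The exception was Hormad1, whose log2 fold change ran from -2.56 to 0.035 when 1 library was left out. Over all loci, the count of calls was 4 in the main analysis, 7 with the replicate block, 2 when eBayes had no trend and 1 with no filter, all lower in knockdown. It ran from 0 without either control library to 134 without knockdown B; counts of lower loci ran from 0 to 119 and of higher loci from 0 to 15. With the replicate block 0 members were called. Over the tested loci, same-letter deviations from the group means correlated at -0.068. This value cannot show whether libraries of the same letter were prepared together. The members' median was 0.72 with a filter at 5 FPKM, which left only Mael, Sycp3 and Tex19.1, and between -0.67 and -0.04 when 1 library was left out. Upper-quartile scaling moved the median of all loci to -0.27 and that of the members to -0.65. In the limma fits of all 4 libraries the unadjusted p of Mael stayed under 0.05. For Tex19.1 it was 0.288 with upper-quartile scaling, 0.076 when eBayes had no trend and 0.074 with the replicate block. When eBayes had no trend it was 0.063 for Sycp3 and 0.036 for Sycp1. With no filter it was 0.060 for Sycp3 and 0.044 for Sycp1. At a pseudocount of 0.01 Hormad1 was at -2.33, Sycp1 at -2.24 and Slc25a31 at 1.41, and with quantile normalization Sycp1 was at -0.28. The members held between 0 and 273 estimated fragments per library, which limits the low ones.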
